A study of Mus musculus with 8 samples.

Results

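The replication-dependent histone genes encode the linker histone H1 and the core histones H2A, H2B, H3 and H4 that package newly copied DNA. The genes were taken as all probe sets with a single gene symbol of the form H2ac, H2bc, H3c or H4c followed by a number, or H1f1 to H1f5, and each symbol was read from its brightest probe set by the mean of the 8 arrays. This gave 25 of the 22180 named genes, of which 4 were H1 genes, 6 H2A, 8 H2B and 7 H4 genes. There were 0 H3 genes among them, because every H3 probe set of this form carried the symbols of several H3 genes. By RefSeq annotation, 20 of the 25 lie on chromosome 13 and 5 on chromosome 3, in the histone gene clusters.

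These genes lack introns, and their mRNAs end in a stem-loop bound by the protein SLBP in place of a poly(A) tail. The coactivator NPAT, which cyclin E and CDK2 phosphorylate, drives their transcription as cells enter S phase, and their mRNAs are degraded when DNA replication ends or is blocked. Levels therefore follow the share of cells in S phase in most dividing cells, and part of the genes can also make polyadenylated mRNA in cells that leave the cycle. The labelling kit used here copies whole transcripts and does not depend on a poly(A) tail.

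All cells were mouse embryonic fibroblasts (MEFs, given as primary cells) labelled STING-/-, so that their own gene was deleted in every group. STING is the adaptor that relays the detection of cytosolic DNA to TBK1 and IRF3. The cells carried the variant R284S, the mutant N154S, which the design text links to the disease SAVI, wild-type STING (labelled hSTING), or the vector pBabe. Each of these 4 lines had 1 array from cells treated for 9 h with double-stranded DNA (dsDNA) in Lipofectamine and 1 array from control cells. The labels name no second population for any construct, and it is not stated whether control cells received the lipid alone. A difference between lines therefore includes any other difference between the populations. In bulk RNA, fewer cells in S phase and less histone mRNA per cell cannot be told apart.

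Levels below are deposited log2 signals, and a difference of 1 between them is 2-fold. The arrays agreed in scale, with medians of the named genes between 4.42 and 4.47. The probe set of endogenous Sting1 read between 3.68 and 4.22, below that median, but which part of the gene was deleted is not stated, so this checks no label. Among the marker lists, the median fibroblast marker read between 9.89 and 10.78 on the 8 arrays, the leukocyte markers between 3.47 and 3.90, the endothelial between 3.68 and 4.07, the epithelial between 3.88 and 4.25, and the male germ cell markers between 2.38 and 3.19. The median of 8 interferon-stimulated genes read 10.83 with dsDNA and 10.80 in control cells with R284S, 11.59 and 11.08 with N154S, 11.73 and 9.65 with hSTING, and 7.13 and 4.87 with the vector.

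Promoter sequences of 23 of the 25 genes were found in the RefSeq-derived table of build GRCm38.p6. The 200 bases before the annotated start are shown, 5′ to 3′ on the gene's strand, for the 4 genes that passed a test below, for H2bc18 as an H2B gene of the other cluster, and for H4c12 as an H4 gene. Capitals mark the TATA box (TATAAA), the CCAAT box (CCAAT), the core of the octamer bound by OCT1 (ATTTGCA) and the H1 box (AAACACA), each searched on both strands.
H2ac20 (chr3:96220881-96221080, minus strand): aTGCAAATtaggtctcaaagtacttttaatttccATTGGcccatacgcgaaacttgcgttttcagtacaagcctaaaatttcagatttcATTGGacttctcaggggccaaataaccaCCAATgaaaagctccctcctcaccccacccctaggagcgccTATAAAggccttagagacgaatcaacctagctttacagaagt
H2ac21 (chr3:96219685-96219884, plus strand): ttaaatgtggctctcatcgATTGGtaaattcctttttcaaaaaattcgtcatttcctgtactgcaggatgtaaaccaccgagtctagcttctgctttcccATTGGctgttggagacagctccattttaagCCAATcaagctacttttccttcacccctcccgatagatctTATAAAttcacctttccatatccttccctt
H2bc12 (chr13:22035621-22035820, plus strand): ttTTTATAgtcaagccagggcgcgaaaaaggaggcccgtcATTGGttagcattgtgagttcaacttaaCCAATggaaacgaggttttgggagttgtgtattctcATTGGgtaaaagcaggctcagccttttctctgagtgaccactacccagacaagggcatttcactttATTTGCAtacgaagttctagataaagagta
H2bc18 (chr3:96269500-96269699, plus strand): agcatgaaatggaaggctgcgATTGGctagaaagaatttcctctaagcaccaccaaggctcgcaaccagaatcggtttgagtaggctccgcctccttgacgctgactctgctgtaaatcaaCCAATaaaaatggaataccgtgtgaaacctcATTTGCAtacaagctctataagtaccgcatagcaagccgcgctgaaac
H1f1 (chr13:23763468-23763667, plus strand): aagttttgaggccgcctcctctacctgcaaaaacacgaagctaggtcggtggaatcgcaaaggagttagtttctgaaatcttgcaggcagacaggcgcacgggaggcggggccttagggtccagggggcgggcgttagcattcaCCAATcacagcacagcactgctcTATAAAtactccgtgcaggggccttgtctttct
H4c12 (chr13:21750554-21750753, minus strand): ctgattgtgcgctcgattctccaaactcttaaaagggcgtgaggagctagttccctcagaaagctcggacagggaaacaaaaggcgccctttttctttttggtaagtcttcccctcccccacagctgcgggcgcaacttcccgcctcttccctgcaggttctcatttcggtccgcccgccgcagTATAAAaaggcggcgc

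The CCAAT box was in the promoter window, 250 bases before to 50 after the start, of 4 of 4 H1, 6 of 6 H2A and 7 of 7 H2B genes but of 1 of 6 H4 genes, against 37.4% of all 32851 promoters in the table. The octamer core, an element known from H2B promoters, was in 5 of 7 H2B and 3 of 6 H2A windows and in 0 H1 and 0 H4 windows, against 4.02% of all promoters. The 3 H2A genes, H2ac1, H2ac12 and H2ac20, each lie next to an H2B gene, in order H2bc1, H2bc12 and H2bc21. Whether windows of neighbouring genes share sequence was not examined, so they may not be separate cases. The TATA box was in 3 of 4 H1, 5 of 6 H2A, 4 of 7 H2B and 4 of 6 H4 windows, against 13.6%, and the H1 box in 3 of 4 H1, 1 of 6 H2A, 2 of 7 H2B and 0 of 6 H4 windows, against 7.18%. Different motifs overlapped in 0 cases. In H2bc12 the octamer core began 30 bases and in H2bc18 48 bases before the annotated start. The TATA match marked in H2bc12 lay 198 bases before the start and on the opposite strand. These are matches of letters and not measured binding sites.

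Signals split the 25 genes into those that could be followed and those near the floor. The mean over the 8 arrays was at or above the gene median of 4.45 for 11 genes, namely H1f2, H1f5, H2ac1, H2ac10, H2ac20, H2ac21, H2bc3, H2bc12, H2bc18, H4c9 and H4c12. The other 14 read lower, and a change in them may go unseen. Of the 11 brighter genes, 8 had their highest signal in hSTING control cells, and 5 had their lowest in R284S and 4 in N154S cells with dsDNA. How often this holds among all genes was not counted. Across all members the range over the arrays went from 0.35 for H2ac12 to 2.24 for the linker histone gene H1f5.

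**Figure D1:**
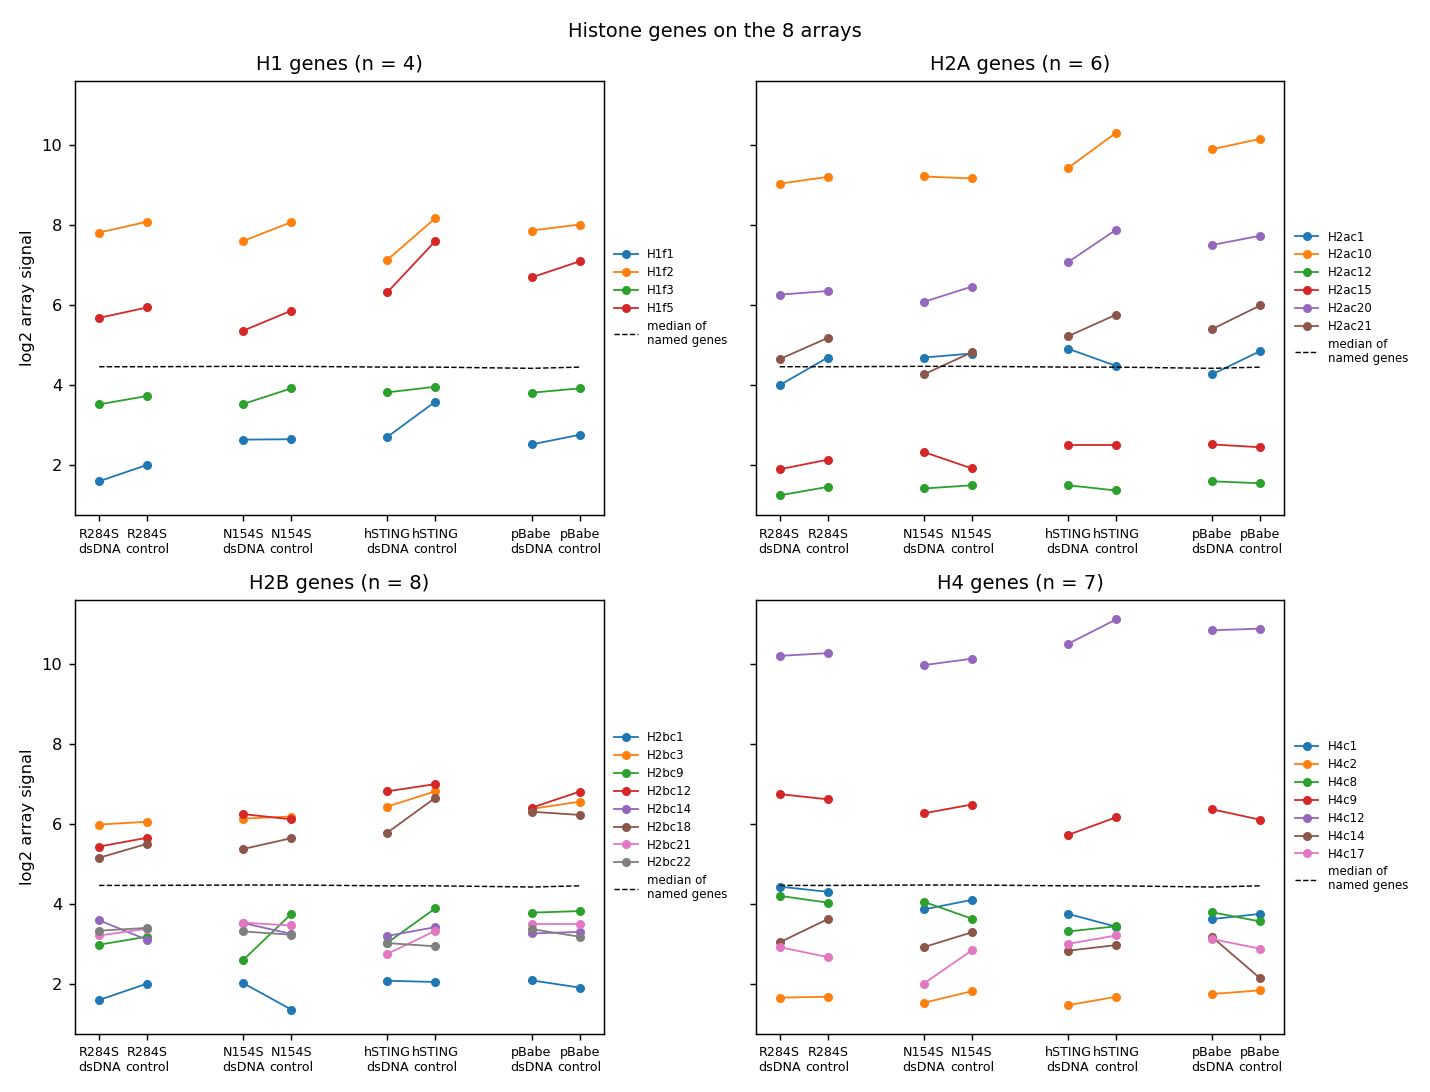
Log2 array signal (y axis) of the 25 histone genes by class on the 8 arrays (x axis), each line joining the dsDNA and the control array of a cell line, with the median of the named genes dashed. H1f5, H2ac10, H2ac20 and H4c12 sit lower in R284S and N154S cells than in hSTING and vector cells, while H1f2 and H4c9 do not.

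In R284S cells the H2A genes H2ac20 and H2ac21 and the H2B gene H2bc12 fell against vector cells, and no H1 or H4 gene passed the test. Construct effects were fitted with limma over both treatments, with construct and treatment as additive terms, and p-values were adjusted by Benjamini-Hochberg over all genes. With 1 array per line and treatment, the error came from how unequal the dsDNA effect was among lines, and these p-values do not measure the spread between replicate cultures. Of the 25 genes, 3 fell and 0 rose in R284S against vector cells, beside 1.02% of all genes that fell and 1.02% that rose. The 25 had a median difference of -0.22, against 0.01 for all genes. Both R284S arrays were below both vector arrays for 15 of the 25, beside 22.7% of all genes, and above them for 3, beside 24.1%.

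The largest of the 3 was in H2ac20, an H2A gene of the chromosome 3 cluster. It read 6.26 with dsDNA and 6.35 in control R284S cells, 6.08 and 6.46 in N154S cells and 7.07 and 7.88 in hSTING cells, against 7.50 and 7.73 in vector cells. All 4 arrays of R284S and N154S were below all 4 of hSTING and vector cells. H2ac20 fell by 1.31 in R284S cells (SE 0.18, adjusted p = 0.0193), a 2.48-fold lower signal.

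H2bc12, an H2B gene with the octamer core in its promoter, read 5.43 with dsDNA and 5.65 in control R284S cells, 6.24 and 6.11 in N154S cells and 6.81 and 6.99 in hSTING cells, against 6.40 and 6.80 in vector cells. R284S cells gave the lowest pair, followed by N154S, vector and hSTING cells, and the pairs of the 4 lines did not overlap. H2bc12 fell by 1.06 in R284S cells (SE 0.15, adjusted p = 0.0214), a 2.09-fold lower signal.

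H2ac21, which lies next to H2ac20, read 4.65 with dsDNA and 5.18 in control R284S cells, 4.27 and 4.82 in N154S cells and 5.22 and 5.76 in hSTING cells, against 5.40 and 5.99 in vector cells. The 2 R284S arrays were below both vector arrays. H2ac21 fell by 0.78 in R284S cells (SE 0.11, adjusted p = 0.0221), a 1.72-fold lower signal. Its other probe set read between 2.70 and 3.12 on all arrays, and with the mean of both the difference was -0.49 (adjusted p = 0.105). Without the N154S pair of arrays, H2bc12 was the 1 gene that passed (adjusted p = 0.0467), while H2ac20 and H2ac21 had adjusted p values of 0.073 and 0.0762. Without the hSTING pair, 8 of the 25 passed and fell, where 654 of all 22180 genes passed in either direction.

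**Figure D2:**
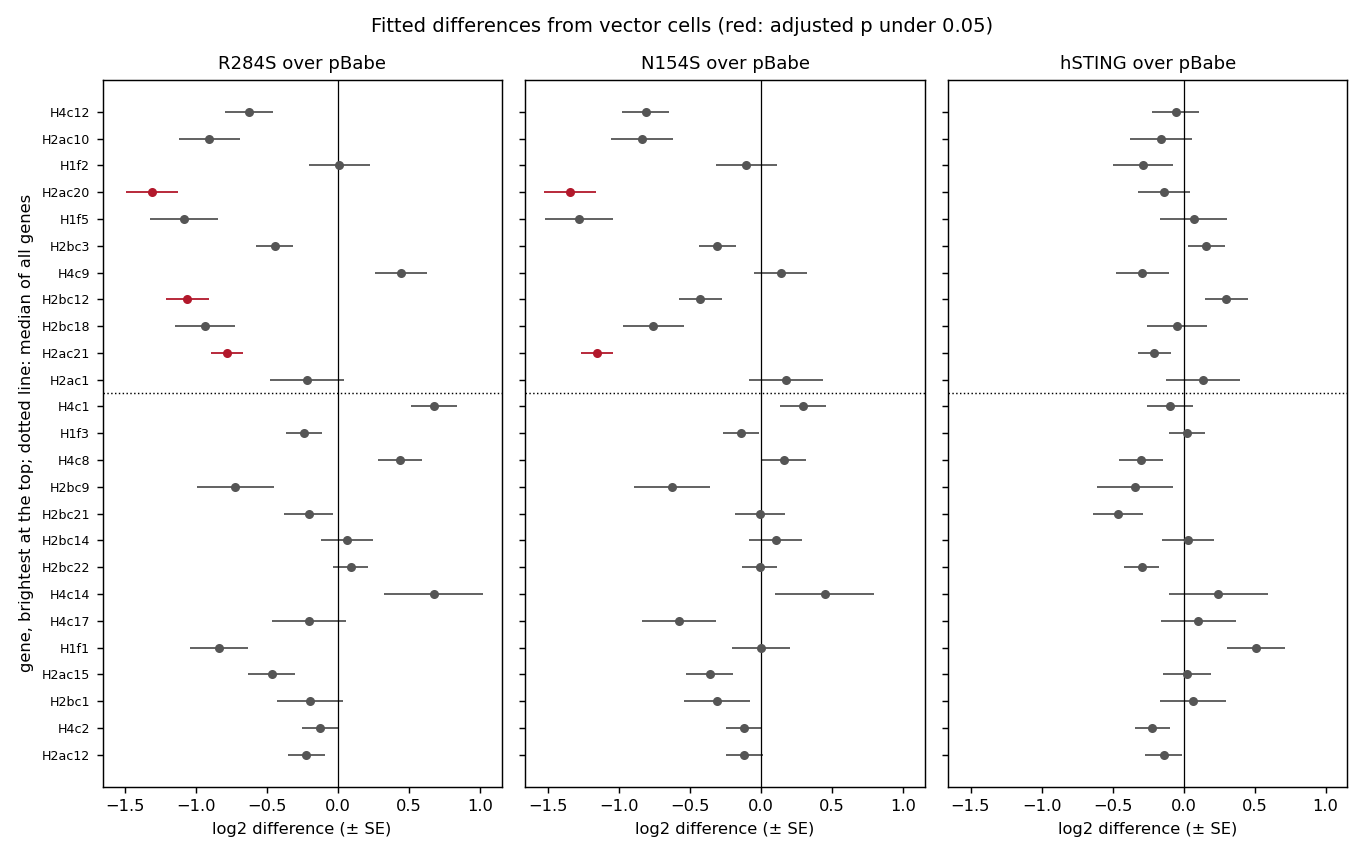
Fitted log2 differences from vector cells over both treatments (x axis, with standard error) for each of the 25 genes (y axis, ordered by mean signal), in R284S, N154S and hSTING cells. Red points passed at an adjusted p under 0.05, which were H2ac20, H2bc12 and H2ac21 in R284S cells, H2ac20 and H2ac21 in N154S cells, and none in hSTING cells.

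At an unadjusted p under 0.05, 11 of the 25 were lower and 3 higher in R284S than in vector cells, against 6.80% and 7.47% of all genes. Among the 11 was H1f5, which encodes a linker histone of dividing cells. It read 5.68 with dsDNA and 5.94 in control R284S cells, 5.36 and 5.86 in N154S cells and 6.32 and 7.60 in hSTING cells, against 6.69 and 7.09 in vector cells. Both variant lines were below both other lines in all their arrays. The difference of R284S from vector cells was -1.08 (SE 0.24, adjusted p = 0.0871). The H2A gene H2ac10 read 9.03 with dsDNA and 9.20 in control R284S cells, 9.21 and 9.16 in N154S cells and 9.42 and 10.30 in hSTING cells, against 9.89 and 10.15 in vector cells. Here too the variant lines did not overlap with the others, and the difference of R284S from vector cells was -0.91 (SE 0.22, adjusted p = 0.105). The H2B gene H2bc3 read 5.98 with dsDNA and 6.05 in control R284S cells, 6.13 and 6.18 in N154S cells and 6.43 and 6.81 in hSTING cells, against 6.37 and 6.55 in vector cells. The R284S pair was lowest, with a difference from vector cells of -0.45 (SE 0.13, adjusted p = 0.187). H2bc18 gave -0.94 (SE 0.21, adjusted p = 0.0945), with 5.15 and 5.50 in R284S cells against 6.30 and 6.22 in vector cells.

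Of the H4 genes, which encode the same core histone, H4c12 and H4c9 were read well above the median and went opposite ways. H4c12 read 10.19 with dsDNA and 10.26 in control R284S cells, 9.96 and 10.12 in N154S cells and 10.49 and 11.10 in hSTING cells, against 10.83 and 10.87 in vector cells. H4c9 read 6.74 and 6.61 in R284S cells, 6.26 and 6.48 in N154S cells and 5.72 and 6.16 in hSTING cells, against 6.36 and 6.10 in vector cells, dsDNA first in each pair. H4c12 was lower in both variant lines than in the other lines on every array, while for H4c9 the R284S pair was the highest. The fitted differences of R284S from vector cells were -0.63 for H4c12 (SE 0.17, adjusted p = 0.143) and 0.45 for H4c9 (SE 0.19, adjusted p = 0.344). H4c1 and H4c8, both read below the gene median, were at 0.68 (SE 0.16, adjusted p = 0.105) and 0.44 (SE 0.15, adjusted p = 0.26). A probe set that carried 6 H4 symbols, H4c1, H4c8 and H4c9 among them, had a mean signal of 6.79 and went the other way. It was at -0.40 in R284S (SE 0.15, adjusted p = 0.295) and -0.505 in N154S cells (SE 0.15, adjusted p = 0.196) against the vector. H4c9 is the immediate neighbour of H2bc12, and H4c8 of H2ac10, so genes next to each other differed in opposite directions in value.

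By class, the median difference of R284S from vector cells was -0.54 for H1, -0.62 for H2A, -0.33 for H2B and 0.44 for H4. All 6 H2A genes, 3 of 4 H1, 6 of 8 H2B and 3 of 7 H4 genes had values below 0, beside 48.0% of all genes. With the genes at or above the gene median alone, the 2 H4 genes had a median of -0.09, the opposite sign, and the 3 H2B genes one of -0.94. These 2 were H4c12 at -0.625 and H4c9 at 0.445, so the brighter H4 genes had no common sign. Members of a class share sequence and are not replicates, so no test of a class is given. H1f2, the other linker histone gene with a clear signal, read 7.81 with dsDNA and 8.08 in control R284S cells, 7.60 and 8.07 in N154S cells and 7.13 and 8.17 in hSTING cells, against 7.86 and 8.01 in vector cells. The lines overlapped, with a fitted difference of R284S from vector cells of 0.01 (SE 0.21, adjusted p = 0.99).

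In N154S cells the neighbouring H2A genes H2ac20 and H2ac21 were lower than in vector cells. Of the 25 genes, 2 fell and 0 rose, beside 0.609% of all genes that fell and 0.708% that rose. H2ac20 fell by 1.34 (SE 0.18, adjusted p = 0.0245, 2.54-fold) and H2ac21 by 1.15 (SE 0.11, adjusted p = 0.00895, 2.22-fold), with every N154S array below every vector array. For H2ac21 the N154S array with dsDNA, at 4.27, was below the gene median. The other H2ac21 probe set read 2.71 with dsDNA and 3.02 in control N154S cells, against 3.03 and 3.12 in vector cells. H1f5 was at -1.28 (SE 0.24, adjusted p = 0.0634), H4c12 at -0.81 (SE 0.17, adjusted p = 0.0789), H2ac10 at -0.84 (SE 0.22, adjusted p = 0.142) and H2bc12 at -0.42 (SE 0.15, adjusted p = 0.262). H2bc18 had -0.76 with an adjusted p of 0.176. Both N154S arrays were below both vector arrays for 12 of the 25, beside 22.9% of all genes, and above them for 1, H4c1, beside 22.5%. The median of the 25 was -0.14 and that of the 11 brighter genes -0.76. Class medians were -0.12 for H1, -0.60 for H2A, -0.31 for H2B and 0.14 for H4. Without the hSTING pair of arrays 5 genes passed, where 594 of all genes did, and without the R284S pair both H2A genes passed.

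For hSTING against vector cells, in the limma fit 0 of 25 genes fell or rose, beside 0.0% of all genes that fell and 0.0992% that rose, and 3 had an unadjusted p under 0.05, beside 9.28% of all genes. The median of the 25 was -0.06, and the smallest adjusted p was 0.523. Both hSTING arrays were below both vector arrays for 5 of the 25, beside 19.2% of all genes, and above them for 1, H2bc12, beside 15.4%. The treatments differed in sign. In control cells 17 of the 25 read higher and 8 lower with hSTING than with the vector (median 0.12), where 51.3% of all genes read lower. With dsDNA 19 read lower (median -0.28), where 51.4% of all genes did. H1f5 read 7.60 in hSTING against 7.09 in vector control cells, and 6.32 against 6.69 with dsDNA.

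Set against hSTING cells, R284S cells had 3 histone genes that fell and 0 that rose, beside 0.442% of all genes that fell and 0.509% that rose. H2bc12 fell by 1.36 (SE 0.15, adjusted p = 0.0158, 2.57-fold) and H2ac20 by 1.17 (SE 0.18, adjusted p = 0.0426, 2.25-fold). The third was the linker histone gene H1f1, at -1.34 (SE 0.20, adjusted p = 0.0393). H1f1 read 1.60 with dsDNA and 2.01 in control R284S cells and 2.64 and 2.65 in N154S cells, against 2.71 and 3.59 in hSTING cells, with 2.52 and 2.76 in vector cells. All of these lie below the gene median, so no fold is given. Both R284S arrays were below both hSTING arrays for 13 of the 25, beside 17.3% of all genes, and above them for 5, beside 21.6%. Without the vector pair or without the N154S pair of arrays, H2bc12 alone passed (adjusted p = 0.0339 and 0.0402), and H2ac20 then had adjusted p values of 0.0877 and 0.144 and H1f1 of 0.0824 and 0.0888.

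For N154S against hSTING cells 0 of 25 genes passed in the limma fit, as did 0.0% of all genes in either direction, and 10 were lower and 4 higher at an unadjusted p under 0.05, beside 4.41% and 4.49% of all genes. With a variance trend and robust eBayes 2 passed. Both N154S arrays were below both hSTING arrays for 12 of the 25, beside 14.9% of all genes, and above them for 5, beside 17.5%. H2ac21 had the smallest adjusted p, with a difference of -0.94 (SE 0.11, adjusted p = 0.103), followed by H2ac20 at -1.20 (SE 0.18, adjusted p = 0.135) and H1f5 at -1.35 (SE 0.24, adjusted p = 0.187). Between R284S and N154S cells 0 of 25 passed, beside 0.00451% of all genes in each direction, and 2 were lower and 2 higher at an unadjusted p under 0.05, beside 3.39% and 3.68%. H2bc12 differed by -0.64 (SE 0.15, adjusted p = 0.506), with both R284S arrays below both N154S arrays, and H2ac21 by 0.37 (SE 0.11, adjusted p = 0.565) in the other direction. The pairs did not overlap for 4 genes lower in R284S and 4 higher, beside 17.5% and 19.8% of all genes.

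Over all lines, 9 of the 25 genes had all 4 arrays of the R284S and N154S cells below all 4 arrays of hSTING and vector cells, beside 3.67% of all genes. They were H1f5, H2ac10, H2ac15, H2ac20, H2ac21, H2bc3, H2bc12, H2bc18 and H4c12, of which 8 are among the 11 brighter genes. In the other direction there was H4c1, beside 4.43% of all genes. This grouping of the lines was chosen after the values were seen and carries no test.

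Single pairs of arrays give the size of the differences within each treatment, with no replicate check. In control cells, R284S over hSTING had 6 genes at least 2-fold lower, namely H1f1, H1f5, H2ac10, H2ac20, H2bc12 and H2bc18, beside 0.568% of all genes, and 0 higher, beside 0.834%. N154S over hSTING had 4 lower, H1f5, H2ac10, H2ac20 and H2bc18, beside 0.293%, and 0 higher, beside 0.658%. R284S over vector control cells had 3 lower, H1f5, H2ac20 and H2bc12, beside 0.839%, and the dim H4c14 higher, beside 1.33%. N154S over vector control cells had 3 lower, H1f5, H2ac20 and H2ac21, beside 0.496%, and H4c14 higher, beside 1.11%. Between R284S and N154S control cells 0 genes passed 2-fold, beside 0.243% of all genes higher and 0.365% lower. Between hSTING and vector control cells it was likewise 0, beside 0.478% higher and 0.108% lower.

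With dsDNA, N154S over vector had 5 genes 2-fold or more lower, H1f5, H2ac20, H2ac21 and the dim H2bc9 and H4c17, beside 1.01% of all genes, and 0 higher, beside 1.79%. R284S over vector had 3 lower, H1f5, H2ac20 and H2bc18, beside 0.951%, and 0 higher, beside 1.33%. R284S over hSTING had 2 lower, H1f1 and H2bc12, beside 2.01%, and 1 higher, H4c9, beside 1.12%. R284S over N154S had H1f1 lower, beside 0.753%, and 0 higher, beside 0.261%. N154S over hSTING had 0 lower, beside 0.726%, and 0 higher, beside 0.28%. Between hSTING and vector cells 0 genes passed, beside 0.87% lower and 2.37% higher. H1f5 and H2ac20 were thus 2-fold or more below the vector in both variant lines and under both treatments. Both variant lines were set against the same vector arrays, and the share of all genes that met this is not given here.

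With dsDNA the histone genes at or above the gene median were lower on average, without passing the test. In the limma fit over the 4 lines 0 of 25 genes passed, as did 0.0% of all genes in either direction. At an unadjusted p under 0.05, 7 of the 25 were lower and 0 higher, beside 5.34% and 5.46% of all genes, and 19 of 25 had values below 0, against 50.1% of all genes. The median of the 25 was -0.17, that of the 11 brighter genes -0.32 and that of all genes -0.002. The 14 dimmer genes had a median of -0.021, with 8 below 0. By class the median was -0.434 for H1, -0.275 for H2A, -0.169 for H2B and -0.067 for H4. Within single lines the median of the 25 was -0.20 in R284S, -0.16 in N154S, -0.22 in hSTING and -0.04 in vector cells. H2ac21 was the most even, with dsDNA minus control at -0.53 in R284S, -0.55 in N154S, -0.54 in hSTING and -0.59 in vector cells, a fitted -0.55 (SE 0.08, adjusted p = 0.448). In 10 of the 25 genes the dsDNA array was lower in all 4 lines, beside 10.4% of all genes, and in 0 it was higher in all 4, beside 9.82%. The 10 held every H1 gene, H2ac20, H2ac21, H2bc3, H2bc9, H4c2 and H4c12.

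The lines were not alike in size. For H1f5 dsDNA minus control was -0.26 in R284S, -0.50 in N154S, -1.28 in hSTING and -0.40 in vector cells. For H1f2 it was -0.27, -0.47, -1.04 and -0.15 in the same order. For H2ac10 it was -0.17, 0.05, -0.88 and -0.26, and for H2bc18 -0.35, -0.27, -0.87 and 0.08. In each of these genes hSTING cells had the largest drop in value, and the median over the 11 brighter genes was -0.61 in hSTING cells, against -0.22 in R284S, -0.22 in N154S and -0.23 in vector cells. H1f1 was not among the brighter genes, and its hSTING pair read 2.71 with dsDNA and 3.59 without.

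In hSTING cells 2 of the 25 genes, H1f2 and H1f5, were 2-fold or more lower with dsDNA, beside 0.618% of all genes, and 0 higher, beside 2.23%. In N154S cells 1 gene was (H2bc9, dim at 2.60 and 3.75), beside 0.171%, and 0 were higher, beside 0.437%. In R284S cells 0 were lower, beside 0.117%, and 0 higher, beside 0.149%. In vector cells 0 were lower, beside 0.144%, and 1 was higher, the dim H4c14 at 3.17 and 2.14, beside 0.266%. These comparisons of 2 arrays have no replicate check. A term that set the dsDNA effect in the 3 lines with STING against the vector line gave 0 of 25 genes and 0.0% of all genes in either direction, with 1 of 25 at an unadjusted p under 0.05, the dim H4c14 (-1.39, adjusted p = 0.994), beside 3.6% of all genes. Whether the hSTING line alone differed from the other lines was not tested.

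**Figure D3:**
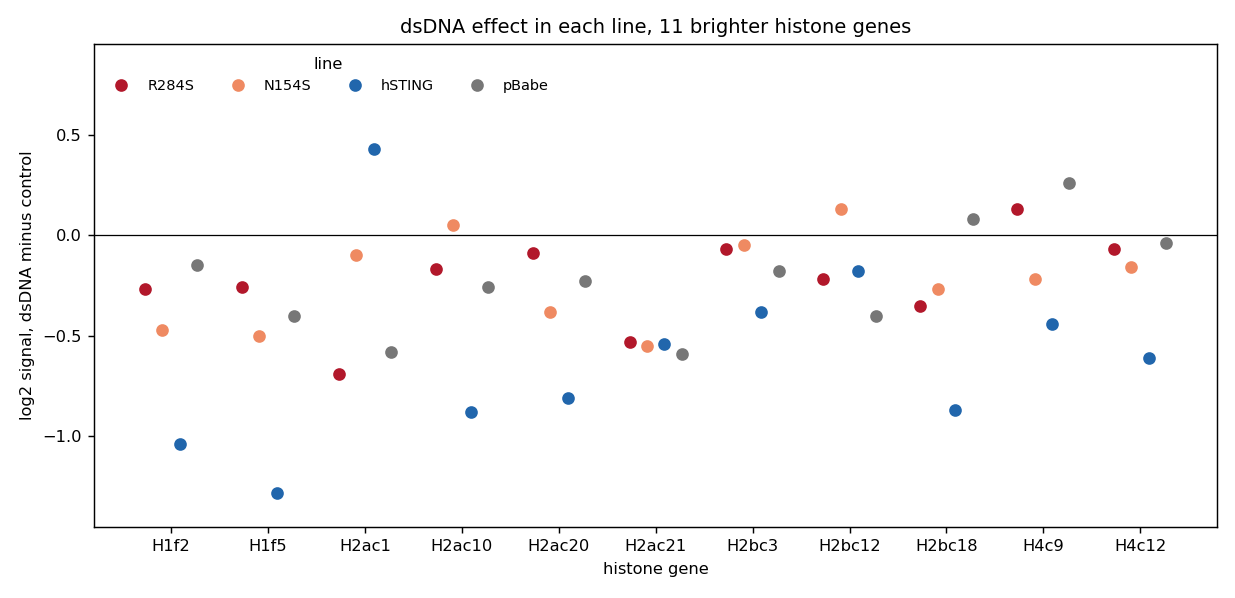
Log2 signal with dsDNA minus that in control cells (y axis) for the 11 histone genes at or above the gene median (x axis), 1 point per cell line and no replicates. The hSTING points lie lowest for H1f2, H1f5, H2ac10, H2ac20, H2bc3, H2bc18, H4c9 and H4c12, reaching -1.28 for H1f5, while the 4 lines nearly coincide for H2ac21.

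Genes that act with the histone genes were followed on the same arrays. SLBP, which binds the stem-loop of histone mRNA, is encoded by Slbp, which read between 7.53 and 7.85 on all arrays, with differences from vector cells of 0.07 in R284S (SE 0.12, adjusted p = 0.854) and 0.21 in N154S cells (SE 0.12, adjusted p = 0.457). Npat differed by 0.08 (SE 0.16, adjusted p = 0.882) and 0.34 (SE 0.16, adjusted p = 0.398). Of the 22 measured genes of histone transcription, mRNA processing and decay, and of the 19 histone chaperones, 0 passed in R284S or N154S against vector cells. At an unadjusted p under 0.05, 3 genes of the first list were higher and 1 chaperone gene lower in R284S cells, beside 7.47% and 6.80% of all genes. In N154S cells 6 genes of the first list and 1 chaperone gene were higher, beside 6.87% of all genes. The medians of these lists were 0.09 and -0.06 in R284S and 0.08 and 0.01 in N154S cells against the vector.

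Of 43 genes of the G1/S transition and S phase, 0 fell or rose in R284S or N154S against vector cells, with medians of -0.11 and 0.11. At an unadjusted p under 0.05, 7 were lower and 1 higher in R284S cells, beside 6.80% and 7.47% of all genes, and 4 were lower and 7 higher in N154S cells, beside 7.99% and 6.87%. Among them the replication clamp gene Pcna read between 9.04 and 9.71 on all arrays and the cyclin gene Ccne1 between 7.52 and 7.92. Against hSTING cells 0 of the 43 passed in either line. In R284S cells 35 of them had values below 0 against hSTING, beside 47.6% of all genes, with a median of -0.165. At an unadjusted p under 0.05, 13 were lower and 0 higher there, beside 5.89% and 7.8% of all genes. In N154S against hSTING cells the median was 0.03, with 2 lower and 0 higher, beside 4.41% and 4.49%. With dsDNA 38 of the 43 had values below 0, beside 50.1% of all genes, with a median of -0.15. For this effect 0 passed, with 11 lower at an unadjusted p under 0.05, beside 5.34% of all genes. The median over all 25 histone genes was -0.22 in R284S and -0.14 in N154S against vector cells. Over the 11 brighter histone genes it was -0.78 and -0.76. The difference between the histone and S-phase lists was not tested.

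The 29 genes of G2 and mitosis had medians of -0.70 in R284S and -0.59 in N154S against vector cells. In each line all 29 had values below 0, beside 48.0% and 49.3% of all genes. Of these, 9 fell in R284S cells, namely Ube2c, Prc1, Plk1, Ccna2, Ccnb2, Nuf2, Ckap2l, Tpx2 and Knl1, beside 1.02% of all genes. At an unadjusted p under 0.05, 28 were lower and 0 higher in R284S cells, beside 6.8% and 7.47% of all genes. In N154S cells it was 25 lower and 0 higher, beside 7.99% and 6.87%. The ubiquitin-conjugating enzyme gene Ube2c fell by 1.17 (SE 0.14, adjusted p = 0.0128), and Ccnb2, which encodes a mitotic cyclin, by 1.09 (SE 0.19, adjusted p = 0.039). Plk1, which encodes a mitotic kinase, fell by 0.90 (SE 0.13, adjusted p = 0.0221). In N154S cells Ube2c, at -1.08, and Ccnb2, at -1.38 (SE 0.19, adjusted p = 0.0245), fell, beside 0.609% of all genes. With dsDNA the list's median was -0.35 in hSTING, -0.20 in R284S, -0.27 in N154S and -0.04 in vector cells. The cell cycle inhibitor gene Cdkn1a read between 11.51 and 11.85 on all arrays. The part of cell cycle state in the histone differences was not tested. Of 10 fibroblast markers, 5 fell in R284S and 3 in N154S against vector cells, beside 1.02% and 0.609% of all genes. Their part in the histone differences was not tested either.

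**Figure D4:**
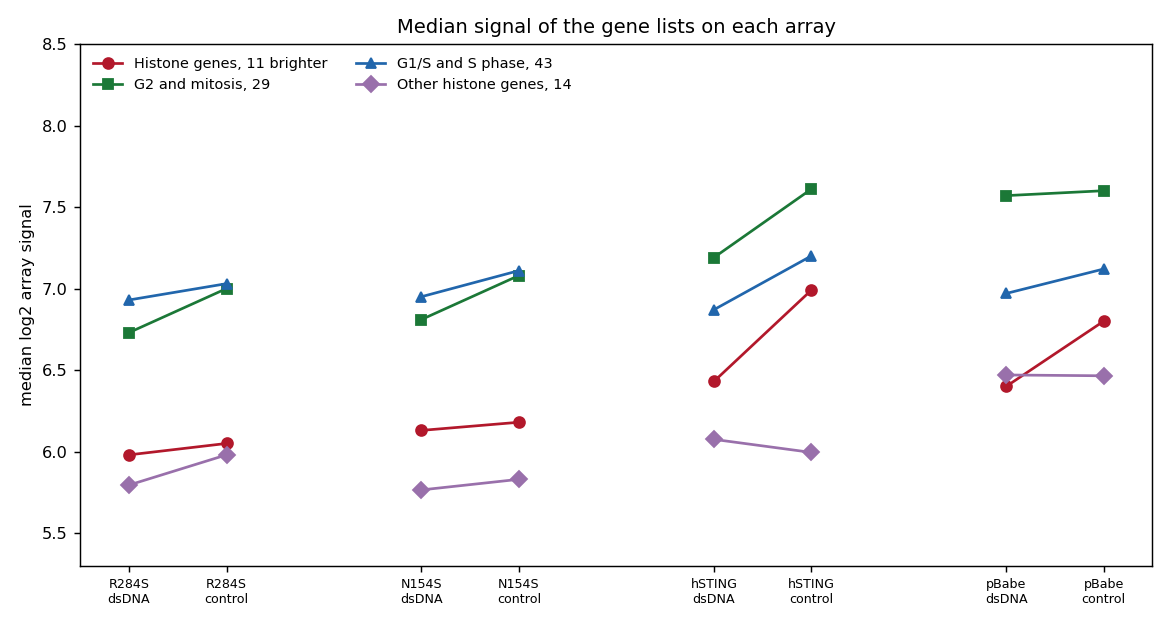
Median log2 array signal (y axis) of 4 gene lists on the 8 arrays (x axis), each line joining the dsDNA and the control array of a cell line. The medians of the 11 brighter histone genes and of the G2 and mitosis list lie lower in R284S and N154S than in hSTING and vector cells, while the S-phase median stays between 6.87 and 7.20.

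Other histone genes, most of them genes of histone variants, were compared as a second list, which also holds germ cell histone genes and a further H4 gene. Of the 14 measured, 1 fell in R284S and 2 in N154S against vector cells, beside 1.02% and 0.609% of all genes. Among the 14, 0 rose, beside 1.02% and 0.708% of all genes, and the medians were -0.18 and -0.16. Cenpa, the histone H3 variant of centromeres that is made in G2, fell in both lines, by 0.90 in R284S (SE 0.16, adjusted p = 0.0426) and by 1.02 in N154S cells (SE 0.16, adjusted p = 0.0352). H2az2, which encodes an H2A.Z variant, fell by 0.92 in N154S cells (SE 0.13, adjusted p = 0.0298) and was at -0.12 in R284S cells (SE 0.13, adjusted p = 0.774).

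The histone probe sets that carry several symbols were examined as a further alternative, chosen after the data were seen. There were 28 distinct ones whose symbols were all histone genes of the kind studied here, 9 of H2A, 5 of H2B, 12 of H3, 1 of H4 and 1 that mixed classes. Genes of a class are nearly identical in sequence, so these probe sets, and to an uncertain degree those with a single symbol, can read sister genes. Without these probe sets, 1.02% of all genes fell and 1.02% rose in R284S against vector cells, and 0.609% and 0.708% in N154S cells. When the shared probe sets were added to the fit, 1 of the 9 H2A probe sets fell in R284S against vector cells, at -1.25 (SE 0.21, adjusted p = 0.033). It likewise fell in N154S cells, at -1.25 (SE 0.21, adjusted p = 0.0425). In contrast 1 of 5 H2B probe sets rose in R284S cells, at 1.16 (SE 0.18, adjusted p = 0.027), with 7.58 and 7.64 against 6.73 and 6.18 in vector cells, dsDNA first. Another H2B probe set rose in N154S cells, at 1.48 (SE 0.22, adjusted p = 0.0329), with 5.74 and 6.15 against 4.76 and 4.17. The median of the 5 was 0.44 in R284S and 0.51 in N154S cells, opposite in sign to that of the single-symbol H2B genes. The brightest of the 5 was at -0.365 (SE 0.16, adjusted p = 0.361) in R284S and -0.28 (SE 0.16, adjusted p = 0.473) in N154S cells. The next brightest, of H2bc4, H2bc6 and H2bc8, was at 0.44 (SE 0.12, adjusted p = 0.153) and 0.51 (SE 0.12, adjusted p = 0.109).

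Of the 12 H3 probe sets, 2 rose in R284S cells, beside 1.02% of all genes that rose in the fit without shared probe sets. They were at 1.76 (SE 0.23, adjusted p = 0.0169) and at 0.995 (SE 0.17, adjusted p = 0.0368), with mean signals over the arrays of 4.69 and 4.81. The H3 median was -0.02 in R284S and -0.07 in N154S against vector cells. The brightest H3 probe set read 7.14 with dsDNA and 7.22 in control R284S cells, against 7.62 and 7.72 in vector cells. H2A, H2B and H3 thus held probe sets with values on both sides of 0.

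**Figure D5:**
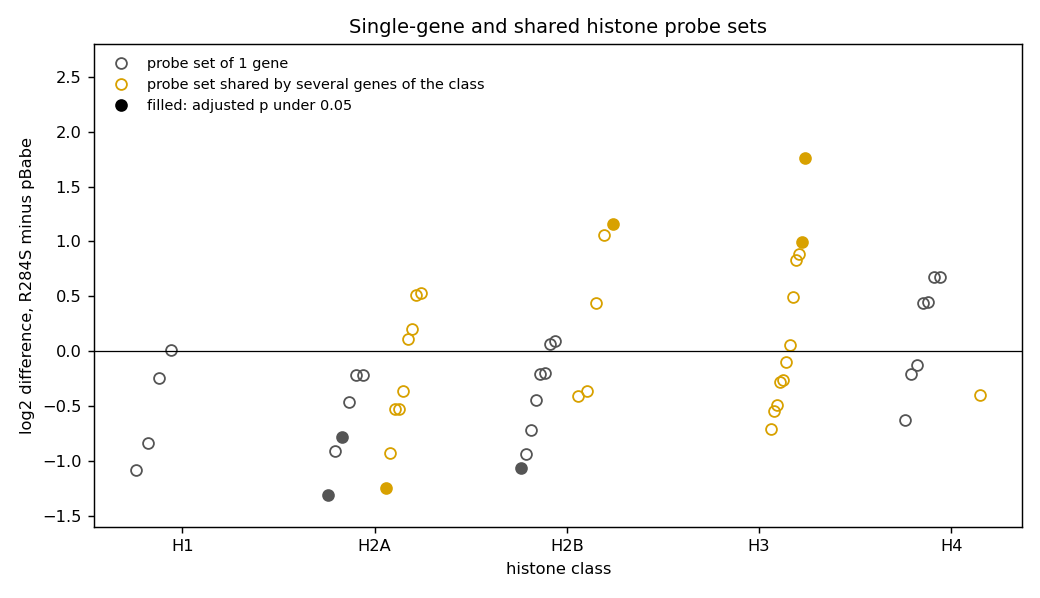
Fitted log2 difference of R284S from vector cells (y axis) by histone class (x axis) for probe sets of 1 gene (grey) and for those shared by several genes of a class (yellow), filled where the adjusted p was under 0.05. Grey H2A points lie below 0, with H2ac20 at -1.31, whereas shared H2B and H3 probe sets reach 1.16 and 1.76.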

How the data were processed

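The deposited log2 values of 41345 probe sets on 8 Affymetrix arrays were used. Per the labels' protocols, 300 ng of total RNA per sample was labelled with a whole-transcript kit, and per the submitters' processing notes the authors used Affymetrix Expression Console 1.3.1.187. The sources used here do not give the background correction, summarisation or genome build. Groups were taken from the sample titles, with 1 array per construct and treatment.

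Probe sets were named from the platform annotation: 23521 had 1 symbol, 1814 several and 16010 were unlisted. The highest-mean probe set per symbol gave 22180 genes. All 25 members matched RefSeq table symbols. limma 3.58.1 in R 4.3.3 fitted construct and treatment (3 residual and 4.03 prior degrees of freedom) with eBayes and Benjamini-Hochberg adjustment at 0.05. A second fit added a term for dsDNA in lines with STING. The script was tested on simulated data. Named genes were all members, genes of fixed lists that passed, and a small panel. The members and lists were chosen with earlier results of these data known. Alternatives covered variances, dim genes, normalization, probe sets and omitted lines. The number of arrays limits the precision.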

Additional observations from a re-analysis of the deposited data

How the results depend on the processing

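Among single genes that passed, the direction was kept under all alternatives run, with the call kept in 64 repeats and lost in 7, all given in the report. No histone gene passed for the dsDNA effect, hSTING over vector, R284S over N154S or the STING term under any of the alternatives run. The dsDNA test had the line as a term, so it compared each dsDNA array with the control array of the same line. The labels give no replicate numbers for any further pairing. A list's median is called moved here when it shifted by more than the residual SD of the median profile.

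The 2 genes that fell in N154S against vector cells became 4 with a variance trend and robust eBayes (the trend below), 4 with the filter on dim genes, 5 without the hSTING pair of arrays, and 3 lower and 1 higher (4) with shared probe sets added. The 3 in R284S against vector cells became 6 with the trend, 8 without the hSTING pair, 1 without the N154S pair, and 4 lower and 3 higher (7) with shared probe sets. For R284S against hSTING cells 3 became 5 with the trend, 1 without the vector pair, 1 without the N154S pair, and 3 lower and 3 higher (6) with shared probe sets. For N154S against hSTING cells 0 became 2 with the trend and 1 with the filter. The causes were not tested. Over all genes, the calls in N154S against vector cells were 292, and 726 with the trend, 662 with the filter and 594 without the hSTING pair. In R284S against vector cells they were 453, and 854 with the trend, 654 without the hSTING pair and 129 without the N154S pair. In R284S against hSTING cells they were 211, and 584 with the trend, 79 without the vector pair and 47 without the N154S pair. In N154S against hSTING cells they were 0, and 125 with the trend and 16 with the filter. For the fit with shared probe sets added, the calls over all genes are not given here. The 12 genes that differed 2-fold or more in at least 1 compared pair of arrays became 20 at 1.5-fold and 22 with shared probe sets. The share of all genes that did so in any pair is not given here, so these counts have no background.

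With the filter on dim genes, which leaves the 11 brighter members, the median difference became -0.76 in N154S and -0.78 in R284S against vector cells, -0.71 and -0.61 against hSTING cells, 0.035 for R284S against N154S, against -0.005 over all members, -0.32 for dsDNA and -0.20 for the STING term. With quantile normalization it became -0.11 for hSTING and -0.20 for N154S against vector cells and -0.18 for the STING term. With shared probe sets it became -0.12 in N154S and -0.20 in R284S against hSTING cells. The dsDNA median became -0.23 without the vector pair, -0.11 without the hSTING pair and -0.21 without the N154S pair, and the median of the STING term -0.05 without the hSTING pair and -0.22 without the N154S pair. Over the brighter members alone, class medians in N154S against vector cells became -0.69 for H1, -0.99 for H2A and -0.34 for H4, and in R284S cells -0.84 for H2A, -0.94 for H2B and -0.09 for H4, so that the sign of the H4 median turned in both lines. The brighter H4 genes, H4c12 and H4c9, differed in sign from each other in both lines.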
